A study of Mus musculus with 12 samples.

Results

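The genes of the major histocompatibility complex (MHC) and of antigen presentation were followed in primary astrocytes of WT and *Rack7*-cKO mouse pups. The members were the rows of the count table whose gene symbol starts with H2-, the prefix of the mouse MHC, or is one of 13 further symbols of the pathway (*B2m*, *Tap1*, *Tap2*, *Tapbp*, *Cd74*, *Ciita*, *Nlrc5*, *Psmb8*, *Psmb9*, *Psmb10*, *Erap1*, *Psme1* and *Psme2*). The rule found 35 members among 18903 genes, of which 23 carry the prefix and 12 are listed symbols, and *Ciita* was not analysed here. All 35 passed the filter on low counts, which left 17938 genes to test. Of 45 genes with the prefix in the GENCODE vM21 annotation of GRCm38, 23 had a row in the table.

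The series compared bulk RNA-seq of primary astrocytes without and with conditional deletion of *Rack7*, also named *Zmynd8*, at postnatal day 1 (P1), P6 and P8, in 6 groups of 2 libraries. The groups were P1 WT, P1 cKO, P6 WT, P6 cKO, P8 WT and P8 cKO, and no group was given any further treatment in the labels. Per the methods, exons of *Rack7* flanked by loxP sites are removed by a Cre driven by the human GFAP promoter, meninges were stripped off, and flasks were shaken to release microglia and oligodendrocytes before the attached cells were grown to confluence, so the day is the age of the pups and not the time in culture. The labels name the libraries biological replicates but do not say how many animals each held, so p-values measure the spread between these libraries, and a culture made on 1 day cannot be told apart from the age of the animals.

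MHC class I molecules carry peptides from inside the cell to its surface and are made of a heavy chain and the light chain β2-microglobulin. The peptides are cut by the immunoproteasome, pumped into the endoplasmic reticulum by the TAP transporter, trimmed there and loaded with the help of tapasin. Class II molecules present peptides from endosomes and are typical of professional antigen-presenting cells, while glial cells in a resting brain are known for low levels of both classes, which interferons raise.

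Totals per library lay between 54413504 and 89183250 counts, and levels are given as CPM (reads of a gene scaled to a common library size) on library sizes scaled by the TMM method. Counts of *Zmynd8* lay between 100 and 136 CPM in the libraries labelled WT and between 160 and 242 CPM in those labelled cKO, so the targeted gene went against the label at each day, with log2 fold changes of 0.65, 1.04 and 0.70 (adjusted p of 3.16e-05, 4.97e-07 and 3.78e-06). A count over the whole gene also holds exons outside the loxP sites and does not test the deletion itself. Per the paper, RACK7 protein in WT and cKO primary astrocytes was checked by immunoblot, and far fewer RACK7 binding peaks were found in cKO astrocytes. Below, cKO means the libraries labelled cKO. The 10 astrocyte markers checked (*Gfap*, *Aqp4*, *Slc1a3* and others) were all detected, at a summed level of 1440 to 2300 CPM at P1 and P6, 1590 to 1970 CPM at P8 WT and 708 to 717 CPM at P8 cKO, where 5 of the 10 were lower and none higher. All 16 microglia and macrophage markers were detected too, and their sum was 11700 to 11800 CPM at P1 WT and 10700 CPM in both P1 cKO libraries, 7590 to 8430 CPM at P6, 9550 to 9740 CPM at P8 WT and 18500 CPM in both P8 cKO libraries. The 8 fibroblast markers checked summed to 2200 to 2390 CPM at P1 WT, 5420 to 5720 CPM at P1 cKO, 17200 to 19100 CPM at P6 WT, 12300 to 12400 CPM at P6 cKO, 34200 CPM in both P8 WT libraries and 17000 to 17500 CPM at P8 cKO, with *Lum* at 0 in both P6 cKO libraries. The 5 of 8 endothelial markers with a row summed to 23.9 to 26.1, 49.5 to 51.9, 122 to 126, 58.8 to 62.6, 149 to 162 and 39.1 to 41.6 CPM in these 6 groups. None of 6 T and NK cell markers had a row, and the 3 of 8 dendritic and B cell markers that did summed to 4.04 to 13.9 CPM. In bulk RNA, fewer cells of a type and less RNA per cell cannot be told apart. Within P6 WT, replicate 2 lay above replicate 1 for 29 of 35 members, by a median of 0.27 on the log2 scale (0 over all genes), and the values without either library are given where they change a count.

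The 5′ flanks of 6 members are shown because the results below turn on these genes: the heavy chains *H2-K1*, *H2-D1*, *H2-Q6* and *H2-Q7*, the light chain *B2m*, and the class II gene *H2-Eb1*. Each window runs from 250 bases before to 50 after the RefSeq start of the gene (GRCm38.p6), 5′ to 3′ on the gene's strand. Capitals mark matches, on either strand, to GGGGATTCC (a κB motif), ATTGG (the CCAAT box, the core of the Y box), TGACG (a CRE-like half-site) or GAAANNGAAA (a pair of interferon response half-sites).
*H2-K1* (chr17:34000298-34000597, minus strand): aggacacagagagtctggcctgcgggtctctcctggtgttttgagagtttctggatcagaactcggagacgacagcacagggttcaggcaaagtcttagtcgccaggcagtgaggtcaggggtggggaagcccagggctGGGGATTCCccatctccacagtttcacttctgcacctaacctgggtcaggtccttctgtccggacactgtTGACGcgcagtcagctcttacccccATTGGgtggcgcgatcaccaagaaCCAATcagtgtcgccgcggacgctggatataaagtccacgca
*H2-D1* (chr17:35262844-35263143, plus strand): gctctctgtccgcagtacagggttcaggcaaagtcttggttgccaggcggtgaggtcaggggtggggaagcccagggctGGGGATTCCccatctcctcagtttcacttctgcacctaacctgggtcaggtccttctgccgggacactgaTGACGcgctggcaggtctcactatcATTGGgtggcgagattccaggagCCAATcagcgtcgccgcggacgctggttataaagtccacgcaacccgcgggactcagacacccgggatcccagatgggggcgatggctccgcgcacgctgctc
*H2-Q6* (chr17:35424600-35424899, plus strand): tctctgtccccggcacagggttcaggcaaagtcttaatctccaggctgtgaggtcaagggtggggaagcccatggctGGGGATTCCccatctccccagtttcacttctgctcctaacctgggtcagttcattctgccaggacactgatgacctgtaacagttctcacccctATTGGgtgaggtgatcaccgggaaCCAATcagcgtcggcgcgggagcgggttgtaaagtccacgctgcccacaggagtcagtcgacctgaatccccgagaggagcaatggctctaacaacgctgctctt
*H2-Q7* (chr17:35438905-35439204, plus strand): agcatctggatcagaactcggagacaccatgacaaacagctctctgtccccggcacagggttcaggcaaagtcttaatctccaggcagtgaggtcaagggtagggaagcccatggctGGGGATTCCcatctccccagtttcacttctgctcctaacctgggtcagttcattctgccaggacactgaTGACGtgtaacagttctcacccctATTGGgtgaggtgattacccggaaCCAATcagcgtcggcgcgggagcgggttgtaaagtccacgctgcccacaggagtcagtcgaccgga
*B2m* (chr2:122147437-122147736, plus strand): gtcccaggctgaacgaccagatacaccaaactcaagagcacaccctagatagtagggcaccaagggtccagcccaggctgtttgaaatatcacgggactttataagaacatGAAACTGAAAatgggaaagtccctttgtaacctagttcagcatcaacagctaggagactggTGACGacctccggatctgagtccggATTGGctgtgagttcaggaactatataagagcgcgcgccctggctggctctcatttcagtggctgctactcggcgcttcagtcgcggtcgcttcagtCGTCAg
*H2-Eb1* (chr17:34305617-34305916, plus strand): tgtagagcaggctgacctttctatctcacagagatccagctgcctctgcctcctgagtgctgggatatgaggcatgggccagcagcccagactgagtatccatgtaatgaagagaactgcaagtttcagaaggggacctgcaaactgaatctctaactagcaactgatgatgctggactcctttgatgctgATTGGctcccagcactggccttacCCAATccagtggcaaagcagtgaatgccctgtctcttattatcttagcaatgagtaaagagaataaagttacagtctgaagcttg

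The windows of *H2-K1* and *H2-D1* were identical at 206 of 228 columns of their best local alignment (90.4%), and those of *H2-Q6* and *H2-Q7* at 254 of 261 (97.3%). RefSeq windows were found for 26 of the 35 members. The κB letters stood in 4 of these 26, *H2-K1*, *H2-D1*, *H2-Q6* and *H2-Q7*, and in 0.25% of all 32851 windows. The CCAAT letters stood in 18 of 26 against 37.4% of all windows, the CRE-like letters in 11 of 26 against 20.8%, and the interferon pair in 5 of 26 (*B2m*, *Erap1*, *H2-T22*, *H2-T23* and *Psme1*) against 3.44%. The windows of *Psmb9* and *Tap1*, which are transcribed away from each other, share 275 bases. These are exact matches of letters and were not tested for binding. A variant of a motif would be missed, so a window without a match may still hold such a site.

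At P1 the class I pathway was the most abundant of the members. Compared per kilobase of exon, *B2m*, the light chain shared by all class I molecules, stood first at P1 WT with 3785 ± 28.8 CPM per kb (SD, n = 2 here and below). It was followed by the classical heavy chains *H2-D1* (562 ± 11.8 CPM per kb) and *H2-K1* (462 ± 0.00796 CPM per kb), then by tapasin (*Tapbp*, 139 ± 1.51 CPM per kb) and the Qa-region heavy chain *H2-Q4* (106 ± 2.14 CPM per kb). At P6 WT *B2m* and *H2-D1* were still first and second, at 709 ± 64.2 and 80.3 ± 6.33 CPM per kb, while *Tapbp* (56.9 ± 6.88 CPM per kb) stood above *H2-K1* (38.4 ± 2.09 CPM per kb). At P8 cKO the order of the first 5 was that of P1 WT. All 35 members together took 0.788% to 0.879% of the counts at P1, 0.132% to 0.171% at P6, 0.374% and 0.391% at P8 WT and 0.557% and 0.561% at P8 cKO. The share was lowest at P6 for both labels, and the groups of the 3 days did not overlap.

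**Figure D1:**
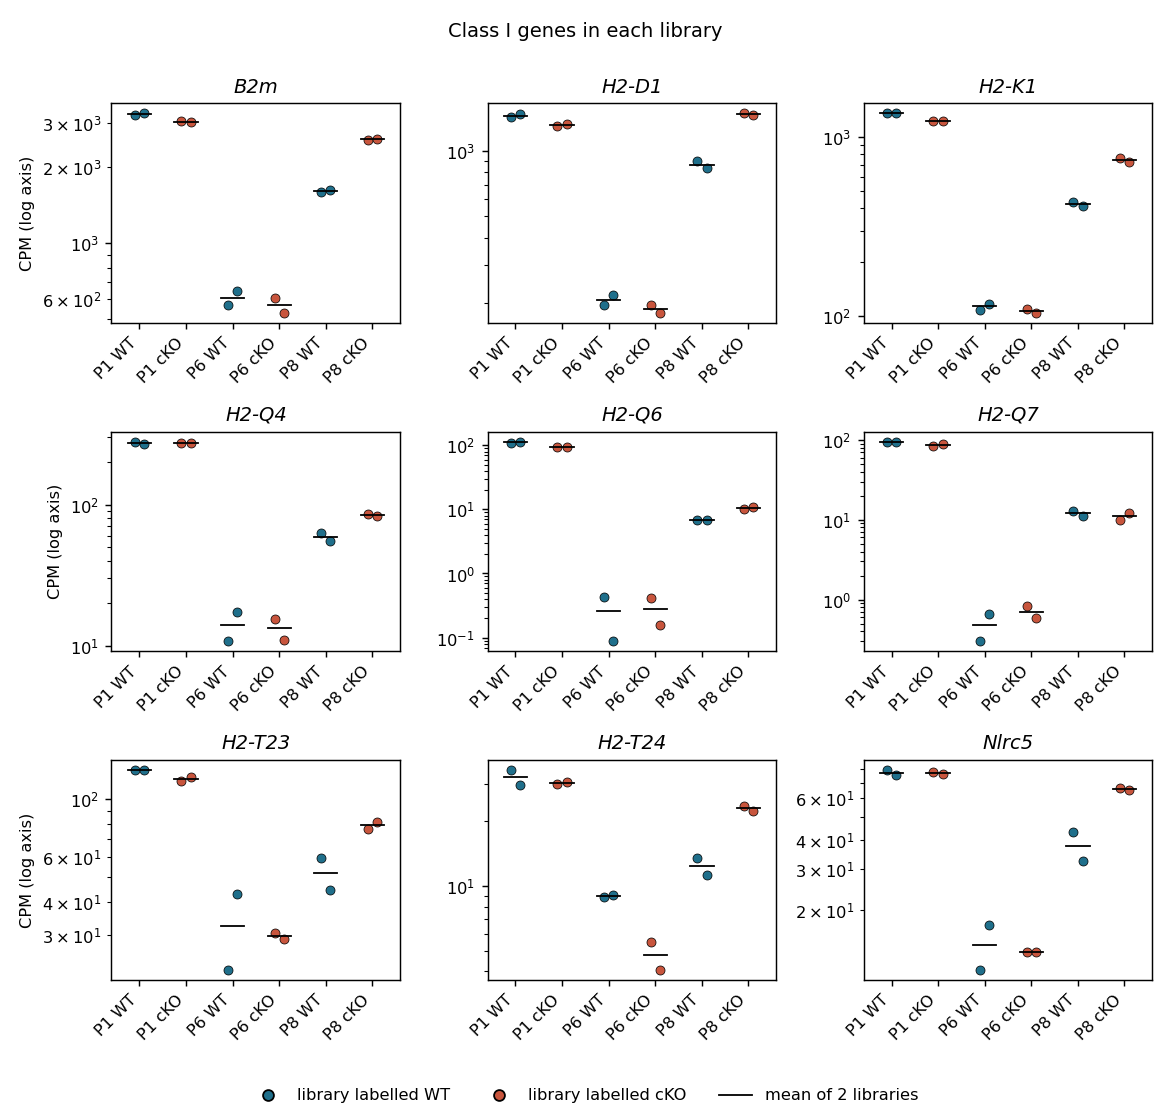
Level of 9 class I pathway genes in each of the 12 libraries, in CPM on log axes that differ between panels, with 1 point per library and a line at the mean of each group of 2. In every panel the 4 P6 libraries lie below the 4 P1 libraries, and the P8 libraries lie between P6 and P1 except for *H2-D1*, whose P8 cKO libraries (1485 and 1465 CPM) stand at the top of the P1 values.

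From P1 to P6 nearly the whole class I pathway fell in both labels. A member was counted as changed at a Benjamini-Hochberg adjusted p below 0.05, over all genes tested in edgeR's quasi-likelihood test, with a fold change of at least 1.5. Errors given after ± are standard errors for log2 values and SDs for levels. In WT 28 of 35 members fell and 1 rose, where 10.9% of all genes fell and 12.2% rose, and in cKO 29 fell and 1 rose, where 10.4% fell and 11% rose. The share of members that fell was 80% in WT and 82.9% in cKO. The median log2 fold change of the members was −1.84 in WT and −2.01 in cKO, against 0 over all genes. The same 28 genes fell in both labels, and the 29th in cKO was *H2-Ab1*. Over the same step the summed microglia and astrocyte markers were lower in each label, and the summed fibroblast and endothelial markers higher (values above). Single markers did not all follow their sums. Of the microglia markers *Trem2* and *Cd68* were higher at P6 in each label, while *Lyz2*, the largest, was lower. In cKO *Flt1* (16.3 and 17.1 CPM at P1, 51.8 and 54.7 CPM at P6) was the only endothelial marker that was higher. Of the fibroblast markers *Fn1*, *Col1a1* and *Col1a2* were higher there, and *Col3a1*, *Dcn*, *Lum*, *Pdgfra* and *Postn* lower. The part of these cells in the fall was not tested.

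*B2m* stood at 3237 and 3272 CPM at P1 WT, 3040 and 3028 CPM at P1 cKO, 570.6 and 648.7 CPM at P6 WT and 605.5 and 530.4 CPM at P6 cKO. It fell by 2.42 on the log2 scale in each label (SE 0.0701, adjusted p = 1.11e-08 in WT and 2.15e-08 in cKO). The classical heavy chain *H2-K1* stood at 1357 and 1356 CPM at P1 WT, 1223 in both P1 cKO libraries, 109 and 117 CPM at P6 WT and 109 and 104 CPM at P6 cKO. It was 12-fold lower at P6 in WT and 11.5-fold lower in cKO (log2 fold changes of −3.59 ± 0.0523 and −3.52 ± 0.0522 SE, adjusted p = 2.23e-10 and 5.57e-10). The P1 and P6 libraries of both genes were far apart. *H2-D1*, the other classical heavy chain, stood at 1429 and 1472 CPM at P1 WT, 1293 and 1334 CPM at P1 cKO, 195.5 and 218.6 CPM at P6 WT and 197.1 and 180.6 CPM at P6 cKO, which is 7.01-fold and 6.95-fold lower.

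Of the heavy chains, *H2-Q6* and *H2-Q7* had the largest fitted falls in WT. They belong to the Qa region, which lies beside *H2-D1* on chromosome 17 and gives non-classical molecules. *H2-Q6* stood at 110 and 114 CPM at P1 WT and 93.8 and 94.8 CPM at P1 cKO. At P6 it stood at 0.426 and 0.0876 CPM in WT and 0.411 and 0.156 CPM in cKO. *H2-Q7* stood at 94.3 and 95.0 CPM at P1 WT, 84.9 and 89.4 CPM at P1 cKO, 0.300 and 0.657 CPM at P6 WT and 0.822 and 0.591 CPM at P6 cKO. Both were thus near the limit of detection at P6, and the fitted log2 fold changes were −8.79 ± 0.443 in WT and −8.36 ± 0.434 in cKO for *H2-Q6* and −7.61 ± 0.292 and −6.94 ± 0.28 for *H2-Q7*. *H2-Q4* fell 19.5-fold and 20.5-fold, from 271 to 279 CPM in the 4 P1 libraries to 10.8 to 17.4 CPM at P6. *H2-Q10*, known as a secreted class I molecule of the liver, had no count in either P6 cKO library. Against 3 counts over that group it was at least 66.1-fold lower than at P1 cKO, where it stood at 0.561 and 2.49 CPM. At P6 WT it stood at 0.0631 and 0.102 CPM, against 1.46 and 1.92 CPM at P1 WT. *H2-Q1* had no count in P6 WT replicate 1 or P6 cKO replicate 2 and 1.66 and 1.46 CPM in the other P6 libraries, from 9.56 to 11.0 CPM at P1. Its adjusted p of 0.0499 in WT and 0.0463 in cKO passed the threshold narrowly and missed it under 13 and 12 of 19 alternatives. Of the 75-base words of *H2-Q6* and *H2-Q7*, 17.9% and 17% occur in another gene. The share was 5.4% for *H2-D1*, 3.1% for *H2-K1* and 0 for *B2m*. Reads may thus have been divided among the Qa genes in a way that cannot be checked in the counts. The H-2 haplotype of the animals, the set of MHC variants they carry, is not stated in the labels or methods. Whether reads of a haplotype other than that of the reference genome would align as well to the H2- genes was not tested.

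The heavy chains *H2-T22*, *H2-T23*, *H2-T24* and *H2-M3* fell by less than *H2-K1* in each label. *H2-T22*, which is seen by γδ T cells, went from 171 to 177 CPM at P1 to 42.0 and 56.5 CPM at P6 WT and 38.2 and 36.6 CPM at P6 cKO. *H2-T23* encodes Qa-1, the ligand of an inhibitory receptor of NK cells, and went from 129 and 130 CPM to 21.96 and 43.06 CPM in WT and from 118 and 121 CPM to 30.5 and 28.8 CPM in cKO. *H2-T24* went from 34.7 and 29.5 CPM to 8.88 and 9.04 CPM in WT and from 30.0 and 30.6 CPM to 5.51 and 4.08 CPM in cKO. Its fall was larger in cKO, by −0.82 ± 0.21 on the log2 scale (adjusted p = 0.0294 for the difference). *H2-M3*, which presents formylated bacterial peptides, fell 2.41-fold in WT and 2.3-fold in cKO. Of the 13 heavy chains, 12 fell in each label, and the exception was *H2-M5*, with at most 1.55 CPM in any library. The median over the 13 was −3.59 in WT and −3.52 in cKO, the latter unchanged with *H2-Q10* at its bound.

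The genes that supply class I with peptides fell as well, by less. *Psmb8*, a catalytic subunit of the immunoproteasome, stood at 113 and 115 CPM at P1 WT, 94.6 and 102 CPM at P1 cKO, 21.5 and 32.1 CPM at P6 WT and 18.3 and 17.2 CPM at P6 cKO. It was 4.26-fold lower at P6 in WT and 5.52-fold lower in cKO. The other catalytic subunits were 2.97-fold and 5.12-fold lower (*Psmb9*) and 2.36-fold and 2.47-fold lower (*Psmb10*). *Psme1* and *Psme2*, the PA28 activator, were 1.68-fold and 1.77-fold lower in WT and 2.11-fold and 2.27-fold lower in cKO. The peptide transporter subunit *Tap1* went from 77.5 and 90.7 CPM to 30.1 and 41.8 CPM in WT, and *Tap2*, its partner, from 70.4 and 76.6 CPM to 41.3 and 44.3 CPM. The trimming enzyme *Erap1* was 2.14-fold and 2.02-fold lower, and *Tapbp* 2.44-fold and 2.35-fold lower. *Tap2* had the smallest fall of the 9 that passed the cut-off in cKO, −0.78 ± 0.0913. The median over these 9 genes was −1.23 in each label. *Nlrc5*, the transactivator of class I genes, stood at 79.2 and 75.4 CPM at P1 WT and 11.1 and 17.2 CPM at P6 WT, and at 77.9 and 76.2 CPM at P1 cKO and 13.2 CPM in both P6 cKO libraries (5.45-fold and 5.83-fold lower).

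**Figure D2:**
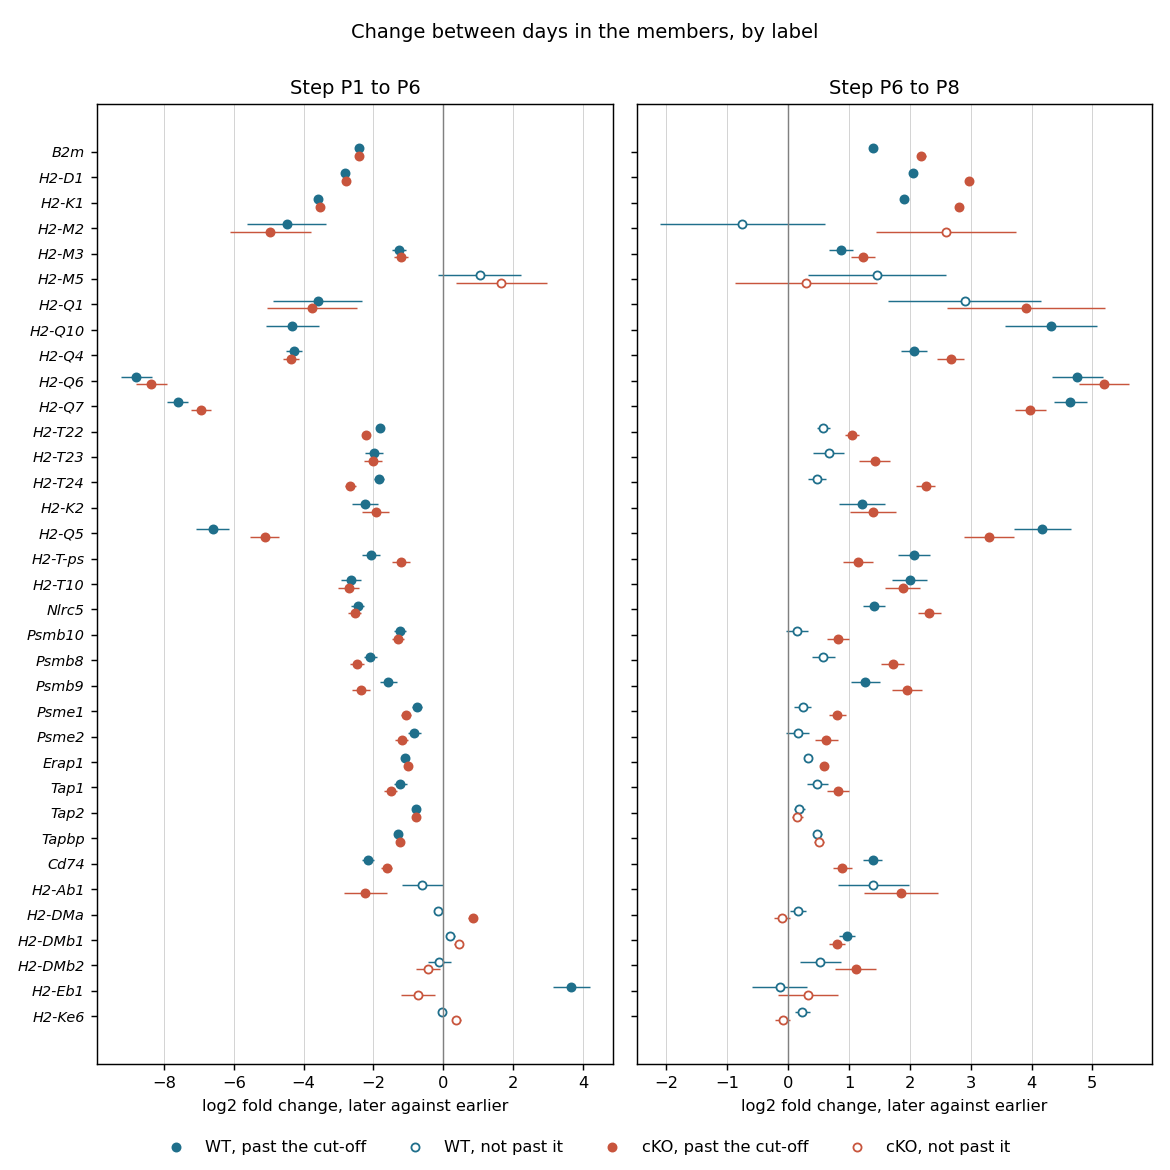
Log2 fold change from P1 to P6 (left) and from P6 to P8 (right) for each member, with the standard error as a bar, WT in blue and cKO in red, and filled points for an adjusted p below 0.05 with a fold change of at least 1.5. *H2-Q10* in cKO is left out because its P6 libraries had no count, and the class I genes sit left of 0 in the left panel and right of 0 in the right panel, with *H2-M5* and *H2-M2* as exceptions.

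From P6 to P8 many of these genes rose, and more of them passed the cut-off in cKO. In WT 16 of 35 members (45.7%) rose and 0 fell, where 8.66% of all genes rose and 10.3% fell. In cKO 28 of 35 (80%) rose and 0 fell, where 11.9% of all genes rose and 12.2% fell. At an unadjusted p below 0.05 with the same fold change 0 members fell in either label, and DESeq2 counted 0 too. The median log2 fold change was 0.97 in WT and 1.40 in cKO, against 0 over all genes. In each label 33 of 35 members had a log2 fold change above 0 and 2 below. Over all 17938 genes 9021 lay above 0 in WT and 9058 in cKO. These steps share the P6 libraries with those from P1 to P6, so both are given side by side and were not combined. With each library left out in turn, between 14 and 22 members rose in WT and between 23 and 28 in cKO.

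*B2m* rose to 1594 and 1623 CPM at P8 WT and to 2576 and 2597 CPM at P8 cKO, which were 49.4% and 85.2% of the P1 means of the same label. *H2-D1* rose to 894 and 831 CPM in WT and 1485 and 1465 CPM in cKO (59.5% and 112% of P1). *H2-K1* rose to 434 and 409.5 CPM in WT and 760 and 725 CPM in cKO, which was 31.1% and 60.7% of P1. In both labels *H2-D1* stood highest relative to P1 and *H2-K1* lowest, and in each of the 3 genes the P8 cKO libraries lay above the P8 WT libraries. *H2-Q6* came to 6.78 and 6.91 CPM in WT and 10.1 and 10.9 CPM in cKO, 6.11% and 11.1% of P1. *H2-Q7* came to 13.02 and 11.16 CPM in WT and 10.03 and 12.33 CPM in cKO, 12.8% of P1 in each label. *H2-Q10*, by contrast, stood at 1.72 and 1.68 CPM at P8 WT and 1.38 and 1.18 CPM at P8 cKO, 100% and 83.7% of P1, and at P8 cKO it was at least 55.3-fold above P6 cKO.

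All 9 peptide supply genes had log2 fold changes above 0 in both labels, with a median of 0.33 in WT and 0.81 in cKO. The difference between the labels had an adjusted p below 0.05 for 2 of the 9. The rise passed the cut-off for 1 of 9 in WT, *Psmb9* (1.27 ± 0.242), and for 7 of 9 in cKO. The 2 that did not pass the cut-off in cKO were *Tap2* (0.15 ± 0.0908) and *Tapbp* (0.51 ± 0.0792). *Psmb8* came to 46.8 and 33.4 CPM at P8 WT and 60.1 and 57.3 CPM at P8 cKO. The rise of *Psmb8* was larger in cKO by 1.14 ± 0.266 on the log2 scale (adjusted p = 0.0142 for the difference). *Tap1* came to 54.4 and 45.6 CPM in WT and 45.7 and 55.2 CPM in cKO, so its P8 libraries overlapped between labels.

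The make-up of the heavy chain counts differed between days as well. The ratio of *H2-K1* to *H2-D1* CPM was 0.917 to 0.949 at P1, 0.537 to 0.576 at P6 and 0.485 to 0.512 at P8. *H2-Q6* plus *H2-Q7* came to 7.10% to 7.38% of *H2-K1* plus *H2-D1* at P1, 0.222% to 0.402% at P6, 1.46% and 1.49% at P8 WT and 0.897% and 1.06% at P8 cKO. Neither ratio returned to its P1 value at P8 in any library. *H2-T22* made up 4.76% ± 0.0093 of heavy chain CPM at P1 WT, 11.2% ± 0.9 at P6 WT and 4.82% ± 0.099 at P8 WT. Summed over the 13 heavy chains, CPM relative to *B2m* was 1.09 to 1.12 at P1, 0.671 to 0.733 at P6 and 0.902 to 0.996 at P8.

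**Figure D3:**
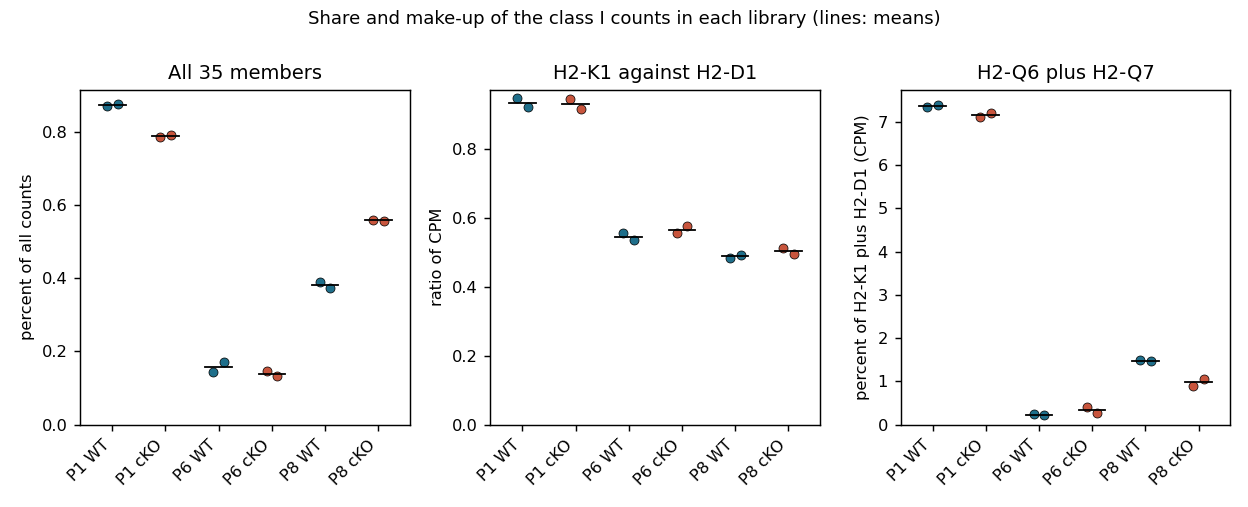
Share of all counts taken by the 35 members (left, percent), ratio of *H2-K1* to *H2-D1* CPM (middle) and *H2-Q6* plus *H2-Q7* as a percent of *H2-K1* plus *H2-D1* CPM (right), with 1 point per library (WT blue, cKO red) and a line at each group's mean. The members' share at P8 lies between the P6 and P1 values, while both ratios at P8 stay below their P1 values of 0.917 to 0.949 and 7.10% to 7.38%.

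The comparison of cKO with WT at each day asks whether these genes differed between the libraries labelled cKO and WT. At P1 no member passed the cut-off in edgeR in either direction, where 4.01% of all genes were higher and 0.892% lower. At an unadjusted p below 0.05 with the same fold change 1 member was higher, *H2-Eb1*, and 0 lower, and DESeq2 called 0. Of the 35 members, 27 had a log2 fold change below 0, with a median of −0.11. Over all genes 8956 of 17938 were below 0, with a median of 0. *H2-K1* was lower in both P1 cKO libraries, at −0.15 (95% interval −0.26 to −0.04, adjusted p = 0.0907), and *B2m* at −0.10 (−0.25 to 0.05) did not differ detectably. *H2-DMa*, a chaperone subunit that loads class II, reached an adjusted p of 0.0491 at −0.51, below the fold condition.

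At P6, 1 member was higher in cKO and 3 lower (2.86% and 8.57% of members), where 7.16% of all genes were higher and 6.38% lower. The member that was higher was *Cd74*, the invariant chain of class II (1.10 and 1.24 CPM in WT and 2.13 and 1.82 CPM in cKO, log2 fold change 0.75 ± 0.161, adjusted p = 0.00775). The lower ones were *H2-Eb1*, *H2-T24* and *Psmb8*. *H2-T24* differed by −0.90 ± 0.152 (adjusted p = 0.00208), with no overlap of its libraries. *Psmb8* differed by −0.59 ± 0.189 (adjusted p = 0.0476) and missed the cut-off under 14 of 19 alternatives. *H2-K1*, *H2-D1* and *B2m* did not pass at P6, with −0.08 (−0.19 to 0.03) for *H2-K1*, −0.13 (−0.27 to 0.01) for *H2-D1* and −0.10 (−0.25 to 0.05) for *B2m*, and their libraries overlapped between labels. *H2-T22* (−0.40, adjusted p = 0.0285) and *H2-DMa* (0.47, adjusted p = 0.0306) passed by p but not by fold change. These counts depended on single libraries: without P6 WT replicate 1, 2 members were higher and 6 lower, without P6 WT replicate 2, 4 were higher, and without P6 cKO replicate 2, 3 were higher. With the 4 P6 libraries alone in the fit *Cd74* did not pass (adjusted p = 0.152) and 0 members were higher.

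At P8, 5 members were higher in cKO and 1 lower (14.3% and 2.86% of members), where 11.2% of all genes were higher and 8.37% lower, so the share of members that were higher was near that of all genes. The members that were higher were *H2-K1*, *H2-D1*, *B2m*, *H2-T24* and *Nlrc5*, and the lower one was *H2-Eb1*. *H2-K1* was 1.76-fold higher (log2 fold change 0.82 ± 0.0475, adjusted p = 1.58e-06), *H2-D1* 1.71-fold (0.77 ± 0.0615, adjusted p = 1.17e-05) and *B2m* 1.61-fold (0.69 ± 0.0668, adjusted p = 4.44e-05). The libraries of these 3 did not overlap between labels, and the differences were many times the gaps within a group. *H2-T24* stood at 13.5 and 11.3 CPM in WT and 23.6 and 22.4 CPM in cKO (0.89 ± 0.148, adjusted p = 0.00131). *Nlrc5* stood at 43.1 and 32.3 CPM in WT and 66.3 and 65.2 CPM in cKO (0.80 ± 0.183, adjusted p = 0.00795), and did not pass without P8 WT replicate 2 (adjusted p = 0.0635). With the 4 P8 libraries alone in the fit 8 members were higher.

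Other class I genes had values above 0 at P8 without passing, such as *H2-Q4* (0.51 ± 0.203, adjusted p = 0.0834), *H2-T23* (0.62 ± 0.252, adjusted p = 0.0915) and *H2-Q6* (0.61 ± 0.298, adjusted p = 0.151). *H2-Q7* (−0.11, 95% interval −0.58 to 0.36) and *H2-T22* (0.08, −0.17 to 0.33) were closer to 0. *Psmb8* (0.55, adjusted p = 0.0479) and *Erap1* (0.20, adjusted p = 0.00443) passed by p but not by fold change. The intervals of *Tap2* and *Tapbp* held 0, with −0.04 (−0.25 to 0.16) for *Tap2* and −0.05 (−0.23 to 0.13) for *Tapbp*. At this day the summed microglia and macrophage markers were 18500 CPM in cKO against 9550 to 9740 CPM in WT, with 12 of 16 markers higher, 1 lower and none at 0, and astrocyte markers were lower. Fibroblast markers summed to 17000 to 17500 CPM in cKO against 34200 CPM in WT, with 6 of 8 lower and none higher, and endothelial markers to 39.1 to 41.6 CPM against 149 to 162 CPM, with 2 of 5 lower and 1 higher. The microglial genes *Csf1r* (625 and 618 CPM in WT, 943 and 921 CPM in cKO) and *C1qa* (609 and 571 CPM, 1400 and 1420 CPM) were among the higher ones, while *Tmem119* was not (61.8 and 57.7 CPM, 24.3 and 21.5 CPM). The part of these cells in the class I values at P8 was not tested.

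**Figure D4:**
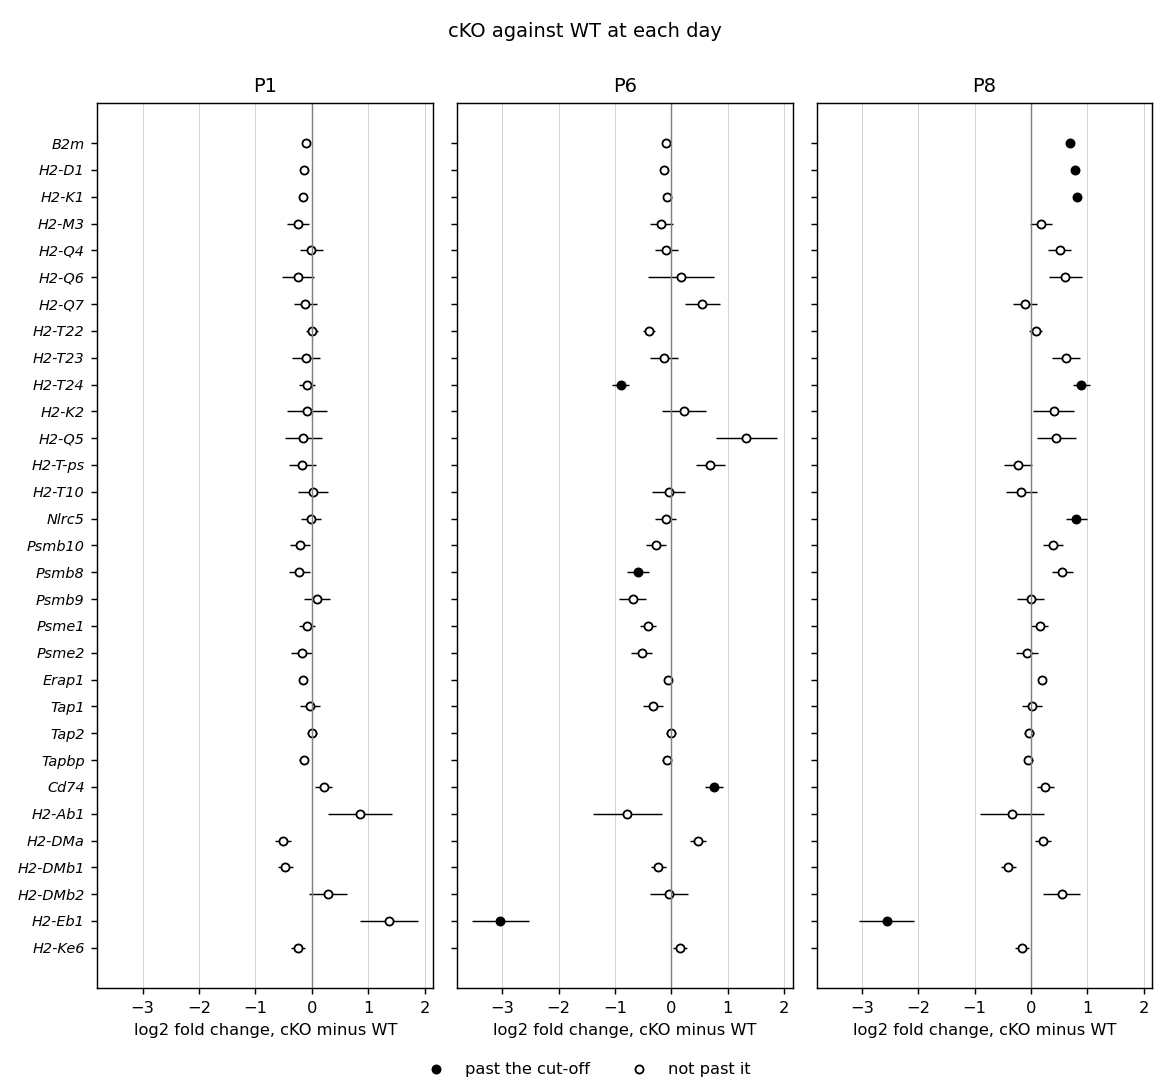
Log2 fold change of cKO against WT at P1, P6 and P8 for 31 members, with the standard error as a bar and filled points for an adjusted p below 0.05 with a fold change of at least 1.5. *H2-M2*, *H2-M5*, *H2-Q1* and *H2-Q10*, each without counts in at least 1 library, are left out, and *B2m*, *H2-D1*, *H2-K1*, *H2-T24* and *Nlrc5* stand right of 0 at P8 only.

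Differences between the genotype effects of 2 days were tested as interaction terms, called by adjusted p alone. From P1 to P6 the effect rose for 1 member and fell for 2, where 7.12% of all genes rose and 8.19% fell. From P6 to P8 it rose for 7 and fell for 0, where 12.6% rose and 8.83% fell, and from P1 to P8 it rose for 7 and fell for 1, where 14% rose and 11.7% fell. The 7 from P6 to P8 were *H2-T24* (1.79 ± 0.212, adjusted p = 0.000321), *Psmb8*, *H2-D1* (0.91 ± 0.0868, adjusted p = 8.74e-05), *Nlrc5* (0.91 ± 0.261, adjusted p = 0.0364), *H2-K1* (0.90 ± 0.0671, adjusted p = 1.83e-05), *B2m* (0.79 ± 0.0942, adjusted p = 0.000349) and *Erap1* (0.26 ± 0.0577, adjusted p = 0.0108). In the P1 to P8 term *H2-K1* reached 0.97 ± 0.0669, *H2-D1* 0.92 ± 0.0866 and *B2m* 0.79 ± 0.0942 (adjusted p = 7.06e-06, 5.48e-05 and 0.00025). The terms of *Nlrc5* were the least certain, since they missed the threshold under 12 and 11 of 17 alternatives. Without P6 WT replicate 1 the P6 to P8 term rose for 11 members and fell for 1, and without P6 WT replicate 2 it fell for 2. From P1 to P6, 3 members rose without P6 WT replicate 2, and 1 fell without P1 WT replicate 2, P1 cKO replicate 2, P6 WT replicate 2 or P6 cKO replicate 2.

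The 6 class II genes did not share one course. Per kilobase each of them stood below *B2m*, *H2-D1* and *H2-K1* in every group, and the highest was *H2-DMb1*, at 14.2 ± 1.34 CPM per kb at P8 WT. *H2-Eb1* encodes a β chain of the class II molecule I-E, and whether that molecule was made was not tested. The gene stood at 0.386 and 0.233 CPM at P1 WT, 3.98 and 3.85 CPM at P6 WT and 3.28 and 3.82 CPM at P8 WT. In cKO it stood at 1.05 and 0.527 CPM at P1, 0.442 and 0.513 CPM at P6 and 0.873 and 0.333 CPM at P8. It was thus above 3 CPM in the 4 later WT libraries alone and at most 1.05 CPM in the other 8. The rise in WT was 12.7-fold (log2 fold change 3.67 ± 0.519, adjusted p = 0.000427), cKO was 8.17-fold lower than WT at P6 (−3.03 ± 0.499, adjusted p = 0.00181) and 5.91-fold lower at P8 (−2.56 ± 0.485, adjusted p = 0.00287), and the interaction terms were −4.40 ± 0.71 from P1 to P6 and −3.93 ± 0.701 from P1 to P8. *H2-Ab1*, the β chain of I-A, ranged from 0.168 to 1.56 CPM over the 12 libraries and did not pass between genotypes. It fell from P1 to P6 in cKO (−2.23 ± 0.611, adjusted p = 0.0177) and rose from P6 to P8 in cKO (1.85 ± 0.606, adjusted p = 0.0379), from group means that rest on few counts.

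*Cd74* followed the course of class I, from 5.33 and 5.20 CPM at P1 WT and 6.16 and 5.99 CPM at P1 cKO to the P6 values above and to 3.11 and 3.06 CPM at P8 WT and 3.68 and 3.65 CPM at P8 cKO. It fell by 2.16 and 1.62 on the log2 scale and rose by 1.39 ± 0.16 in WT and 0.89 ± 0.155 in cKO. *H2-DMa* rose from P1 to P6 in cKO, from 6.46 and 5.86 CPM to 12.1 and 9.94 CPM (0.84 ± 0.137, adjusted p = 0.00111), and stood at 7.75 to 9.51 CPM in the 6 WT libraries. Its interaction term was 0.98 ± 0.192 from P1 to P6 (adjusted p = 0.00801), but the gene overlaps *Brd2* and other genes, whose reads may be counted with it. *H2-DMb1*, the other subunit of that chaperone, rose from P6 to P8 in both labels (0.97 ± 0.129 and 0.80 ± 0.129), to 25.4 and 22.3 CPM in WT and 17.4 and 18.7 CPM in cKO. The 3 dendritic and B cell markers summed to 5.62 to 8.37 CPM in the 6 WT libraries, 4.04 to 9.87 CPM at P1 and P6 cKO and 12.9 to 13.9 CPM at P8 cKO. Markers of other cells differed beside *H2-Eb1* as well. The endothelial gene *Cdh5* stood at 1.54 and 1.72 CPM at P1 WT, 55.7 and 57 CPM at P6 WT and 125 and 141 CPM at P8 WT, and in cKO at 13.5 and 13.6 CPM at P1, 1.11 and 0.607 CPM at P6 and 10.1 and 9.59 CPM at P8. *Tek*, an endothelial receptor, stood at 17 and 16.9 CPM at P6 WT and 13.1 and 13.2 CPM at P8 WT, and at most 5.39 CPM in the other 8 libraries. The other endothelial markers took other courses. *Flt1* stood at 39.8 and 33.9 CPM at P6 WT and 51.8 and 54.7 CPM at P6 cKO. At P8 it stood at 6.36 and 3.92 CPM in WT and 19.9 and 18.9 CPM in cKO. *Kdr* went from 18 and 15.9 CPM at P1 WT to 3.4 and 3.35 CPM at P8 WT. *Esam* stood higher in WT at P6 and in cKO at P8. By the cut-off, 4 of 5 endothelial and 5 of 8 fibroblast markers were lower in cKO at P6 and none higher. The part of any of these cells in the class II values was not tested.

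**Figure D5:**
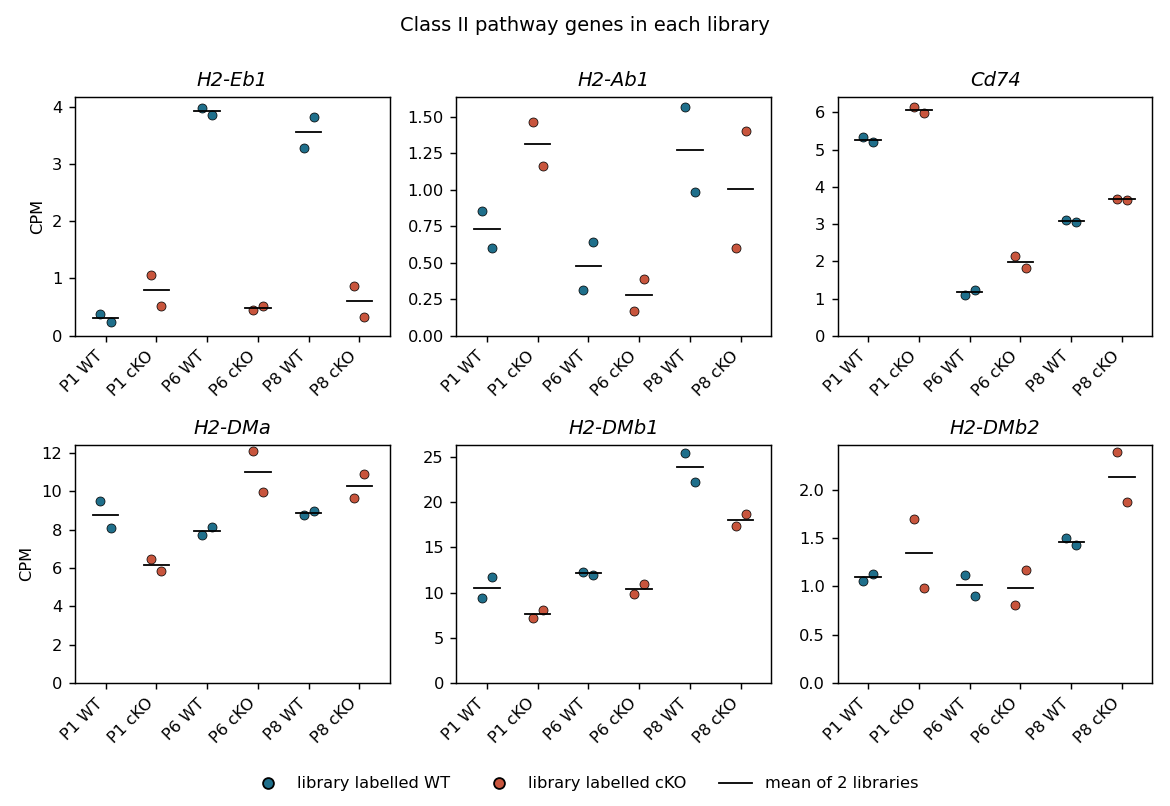
Level of the 6 class II pathway genes in each library, in CPM on axes that start at 0, with 1 point per library and a line at the mean of each group of 2. *H2-Eb1* is above 3 CPM in the P6 and P8 WT libraries and at most 1.05 CPM elsewhere, and *Cd74* is lowest at P6.

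The 4 class I pseudogenes of the annotation, *H2-K2*, *H2-Q5*, *H2-T10* and *H2-T-ps*, fell from P1 to P6 and rose from P6 to P8 in both labels, and none differed between genotypes. *H2-Q5* went from 13.1 to 16.6 CPM at P1 to 0.0631 to 0.563 CPM at P6 and 2.60 to 3.98 CPM at P8. *H2-Q5* and *H2-T10* share 21.2% and 16% of their 75-base words with other genes. *H2-Ke6*, whose name carries the prefix though it encodes a steroid dehydrogenase with no part in presentation, stood at 6.86 to 10.1 CPM in all 12 libraries and passed no cut-off, and 65.5% of its words occur in *Gm20427*. *H2-M2* went from 2.30 to 2.99 CPM at P1 to at most 0.171 CPM at P6 and passed in both labels, on few counts.

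Of 50 further genes of antigen processing, class I and II transcription factors, interferon signalling and costimulation, 48 had a row and were tested. Between genotypes 1 was higher and 0 lower at P1, 0 higher and 5 lower at P6, and 8 higher and 4 lower at P8. At P1 this is 2.08% higher, against 4.01% of all genes. The P6 share was 10.4% lower, against 6.38%, and the P8 shares were 16.7% higher and 8.33% lower, against 11.2% and 8.37%. *Cd80*, which costimulates T cells, was higher in cKO at P1 (20.4 ± 0.7 against 6.84 ± 0.758 CPM, log2 fold change 1.58 ± 0.111) and lower at P6 (27.5 ± 3.78 against 85.1 ± 6.08 CPM, −1.63 ± 0.108) and P8 (28.1 ± 0.608 against 112 ± 1.39 CPM, −2.00 ± 0.109). The adhesion molecule *Icam1* (37.7 ± 0.356 against 101 ± 2.92 CPM, −1.43 ± 0.0514) and the neonatal Fc receptor *Fcgrt* (29.9 ± 9.03 against 72.3 ± 5.81 CPM, −1.28 ± 0.221) were lower in cKO at P6. *Cd86*, which shares its receptors with *Cd80*, was higher in cKO at P8 (21.5 ± 3.75 against 7.36 ± 0.201 CPM, 1.55 ± 0.149), as was the lysosomal protease *Ctsb* (8998 ± 3.96 against 3720 ± 50.7 CPM, 1.27 ± 0.0236). From P1 to P6 3 of the 48 rose and 13 fell in WT, and 0 rose and 15 fell in cKO, while from P6 to P8 5 rose and 1 fell in WT and 19 rose and 0 fell in cKO. The shares that fell from P1 to P6 were 27.1% in WT and 31.2% in cKO, against 10.9% and 10.4% of all genes. The shares that rose from P6 to P8 were 10.4% and 39.6%, against 8.66% and 11.9%.

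Most members lie together on chromosome 17, and their neighbours were counted in the same way. Within the stretch that holds 27 members, between starts at 33974659 and 37480851 on GRCm38, 111 other genes had a row and 104 were tested. From P1 to P6 6 of these 104 rose and 18 fell in WT, with a median log2 fold change of −0.05, and 3 rose and 18 fell in cKO, with a median of −0.04. The share that fell was 17.3% in each label, against 10.9% and 10.4% of all genes. Some of these neighbours overlap a member, such as *Gm11131* with *H2-Q4*, and *Aif1* is also among the microglia markers. From P6 to P8 7 of the 104 rose and 8 fell in WT, and 14 rose and 9 fell in cKO. The shares that rose were 6.73% and 13.5%, against 8.66% and 11.9% of all genes. Those that fell were 7.69% and 8.65%, against 10.3% and 12.2%. Between genotypes 1 was higher at P1, the complement gene *C4b* (201 ± 2.21 against 77.5 ± 1.45 CPM, 1.38 ± 0.0553). At P6, 5 were higher and 7 lower (4.81% and 6.73%, against 7.16% and 6.38% of all genes), and at P8 9 were higher and 3 lower (8.65% and 2.88%, against 11.2% and 8.37%). When genes under a mean of 1 CPM are set aside, the largest at P8 were *Cdsn* (33.1 ± 1.75 against 4.96 ± 1.12 CPM, 2.74 ± 0.147), the cytokine *Tnf* (32.3 ± 0.814 against 6.56 ± 0.574 CPM, 2.30 ± 0.105) and complement factor B (*Cfb*, 12.8 ± 0.712 against 37.7 ± 0.327 CPM, −1.56 ± 0.215). Under the same limit the 3 largest at P6 were *Zfp57* (−2.06 ± 0.399), *Gm10074* (−1.80 ± 0.578) and *Ager* (1.48 ± 0.404).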

How the data were processed

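RNA-seq of 12 libraries in 6 groups of 2 was used. The deposited values are counts, whole numbers of reads per gene that the authors made from reads aligned with HISAT2 to mm10 (GRCm38) per the submitters' processing notes and did not normalize. For the counting step, neither the program nor its strand setting is given in the sources used here, so genes that overlap or share sequence are uncertain.

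Tests were run with edgeR 4.0.16, which builds on limma 3.58.1, under R 4.3.3, with filterByExpr at a minimum count of 10, TMM factors of 0.943 to 1.07, and quasi-likelihood tests on 1 mean per group over all 12 libraries. A call needed a Benjamini-Hochberg adjusted p under 0.05 and a 1.5-fold change, and interaction terms by adjusted p alone. The median library total was 67180944.5, the common biological coefficient of variation 0.178, and the smallest exact permutation p for 2 against 2 libraries is 0.333. Replicates differed by more than counting noise. The scripts were tested on simulated data. Floors use 3 counts over a group and cover counting error only.

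Gene positions and lengths came from GENCODE vM21, in which 18873 of the 18903 identifiers of the table were found, and promoter windows from RefSeq. The members and lists were chosen with earlier results of these data known. Members with a mean of at least 1 CPM, or called between genotypes, are described with values, except the pseudogenes *H2-K2*, *H2-T10* and *H2-T-ps*. Others are given mostly as counts. The values of *H2-Ab1*, *H2-M2* and *H2-M5*, which have a lower mean, were added after they were seen. Of the 50 pathway genes and of the neighbours, the 3 largest called at each day with a mean of at least 1 CPM are named. Alternatives were DESeq2 1.42.0, its size factors in edgeR, no filter on low counts, the compared groups alone, the replicate number as a block, other cut-offs, and each library left out in turn. Other data of the study were not used here.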

Additional observations from a re-analysis of the deposited data

Results flagged for a closer look

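A total of 18 results were singled out because the genotype effect differed between 2 days by an interaction term of edgeR's fit at an adjusted p below 0.05. They are differences of log2 fold changes (cKO minus WT, later day minus earlier day), each given as a value with no explanation.

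From P1 to P6 the effect rose for *H2-DMa* (0.98) and fell for *H2-Eb1* (−4.4) and *H2-T24* (−0.82).

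From P6 to P8 it rose for *H2-T24* (1.79), *Psmb8* (1.14), *H2-D1* (0.91), *Nlrc5* (0.91), *H2-K1* (0.9), *B2m* (0.79) and *Erap1* (0.26).

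From P1 to P8 it rose for *H2-T24* (0.98), *H2-K1* (0.97), *H2-D1* (0.92), *Nlrc5* (0.81), *B2m* (0.79), *H2-DMa* (0.72) and *Erap1* (0.35), and fell for *H2-Eb1* (−3.93). The terms that share a day share its libraries. The values of *H2-DMa* from P1 to P8 and of *H2-T24* from P1 to P6 missed the threshold under 5 and 7 of 17 alternatives. Each of these left out a single library, except that *H2-T24* also missed it with the compared groups alone.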

How the results depend on the processing

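Of 131 calls of single members, 96 kept their direction and their side of the threshold under every alternative, 35 lost the call under at least 1, and 0 reversed. The causes were not tested. Counts of members that moved by over 1.5 times were these. At an unadjusted p below 0.05 1 member was higher at P1, 3 higher at P6 and 5 lower at P6. At a fold change of at least 2, 0 were higher and 1 lower at P6, 0 were higher at P8 and 0 rose from P1 to P6 in cKO. With the compared groups alone 0 were higher at P6 and 8 at P8, the term from P1 to P6 fell for 1, and the term from P1 to P8 rose for 13. With DESeq2, 2 were higher at P6 and the term from P1 to P6 rose for 2. Over all genes DESeq2 called 264 lower at P1 against 160 in edgeR, and edgeR called 101 without P1 WT replicate 1.

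With single libraries left out, 0 to 1 members were lower at P1, 1 to 4 higher and 2 to 6 lower at P6. The term from P1 to P6 rose for 1 to 3 and fell for 1 to 2, and the term from P6 to P8 rose for 6 to 11 and fell for 0 to 2. Where only 1 library of a group stayed, its spread was taken from the other groups.

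No pairing by the shared replicate numbers was seen, since deviations from the group means correlated at −0.045 to 0.074. The labels do not say whether libraries of the same number were prepared together, and such low correlations do not settle it. In the fit with the replicate block, 5 members were higher at P8, 2 lower at P6 and 6 rose in the term from P6 to P8, and 28 fell from P1 to P6 in cKO. With 2 libraries a group, low members such as *H2-Ab1*, *H2-M2*, *H2-M5* and *H2-Q1* could show large differences only.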
